A study of Mus musculus with 16 samples.

Results

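The keratins Krt7, Krt8, Krt18, Krt19 and Krt76 and vimentin (Vim) were followed in 4TO7, a line of mouse mammary carcinoma cells, after overexpression of miR-200 clusters or of E-cadherin. All probes whose current symbol was one of these 6 genes were taken, whatever their signal, so the 6 of 27670 gene names on the array were read by 9 of its 41174 probes. Of these 9, 8 passed the filter on dim probes, as did 27090 probes in all. The 4 overexpression groups were Cluster 1, Cluster 2, Clusters 1+2 and CDH1 (stable E-cadherin), and each was set against its own vector control: the Puro vector for Cluster 1, the Hygro vector, the Hygro and Puro vectors together, and a separate Puro vector for CDH1. All cells carried retroviral pMSCV vectors with hygromycin or puromycin selection and grew in DMEM with 10% serum. Each group had 2 arrays, repeats A and B, and on each array 175 ng of cell RNA was labelled in one colour against a reference RNA of 11 mouse cell lines in the other. The series design calls the repeats biological, but no source used here says that they were separate infections, and each p-value reflects only how far these repeats spread. Repeats A and B of Cluster 2, Clusters 1+2 and their controls lay on slides 1 and 2 with the cell RNA in Cy3. CDH1 and its control lay on slide 3, and Cluster 1 and its control on slide 4, all with the cell RNA in Cy5.

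Keratins are the intermediate filament proteins of epithelia. A type II keratin (here Krt7, Krt8 and Krt76) pairs with a type I keratin (here Krt18 and Krt19), and the pair of Krt8 and Krt18 is typical of simple epithelia such as the luminal layer of the mammary gland. Vimentin, a type III intermediate filament protein that assembles with itself, is typical of mesenchymal cells, and carcinoma cells that lose epithelial traits often make more of it. The miR-200 family represses the transcription factors Zeb1 and Zeb2, which in turn repress epithelial genes. Krt76 does not belong with the simple epithelial keratins: it is known as a type II keratin of the hard palate and gingiva, and it is described here by its own name.

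The overexpressed RNAs are shown because they are what separates 3 of the 4 comparisons from the E-cadherin one. The 5 mature 3p forms of the family in RefSeq (GRCm38.p6) fall into 2 groups by seed, bases 2 to 8, in capitals below; 3 of them carry AAUACUG and 2 carry AACACUG. The sources used here do not say which genomic cluster each group label stands for.
mmu-miR-200b-3p: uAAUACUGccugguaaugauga
mmu-miR-200c-3p: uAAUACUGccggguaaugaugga
mmu-miR-429-3p: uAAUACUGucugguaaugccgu
mmu-miR-200a-3p: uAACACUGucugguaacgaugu
mmu-miR-141-3p: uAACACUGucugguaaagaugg

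Each level below is a log2 ratio of cell RNA over reference RNA, so 0 is the level of the reference. Each difference is overexpression minus vector on that log2 scale, with the standard error (SE) and the Benjamini-Hochberg adjusted p over all probes tested, from 1 limma fit over the 16 arrays. A probe was called at an adjusted p under 0.05. The arrays had 12560 to 28417 probes well above background in the cell channel, the fewest on repeat B of the Puro vector for CDH1. Repeats of a group correlated at 0.926 to 0.978 across probes, which are not independent replicates.

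In Cluster 1 and in Cluster 2 cells the same 3 genes, Krt7, Krt8 and Krt18, were called higher than in the vector controls, and Krt19, Krt76 and Vim did not pass the test. The Krt8 calls were not steady in either group. In Cluster 2 both its probes missed the threshold under 5 of the alternatives described with that gene. In Cluster 1 its probe 1 rested on 1 control array. The call of its probe 2 was lost with some left-out arrays, with all spots kept and in the cell channel alone. In Clusters 1+2 cells all 6 genes were called: the 4 simple epithelial keratins rose, and Krt76 and Vim fell. In CDH1 cells the 2 genes called, Krt8 and Krt76, both fell, though both calls depended on which Puro vector served as the control. These Puro vectors lay on different slides, so vector line and slide cannot be told apart. Counted by probe, 5 of 8 were called in Cluster 1, all higher, where 6.1% of all probes tested were called, 3.65% higher and 2.45% lower. In Cluster 2, 5 of 8 were called, all higher, beside 2.22% of all probes (1.43% higher, 0.792% lower). Clusters 1+2 had 8 of 8 called, 6 higher and 2 lower, beside 23.6% of all probes (11.8% higher, 11.7% lower). In CDH1, 3 of 8 were called, all lower, beside 11.8% of all probes (6.29% higher, 5.47% lower). The median difference over the 8 probes was 0.68 in Cluster 1, 0.63 in Cluster 2, 1.2 in Clusters 1+2 and -0.30 in CDH1, where the median over all probes lay within 0.01 of 0 in each comparison. In these RNA pools, more cells with a keratin and more keratin RNA per cell cannot be told apart.

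**Figure D1:**
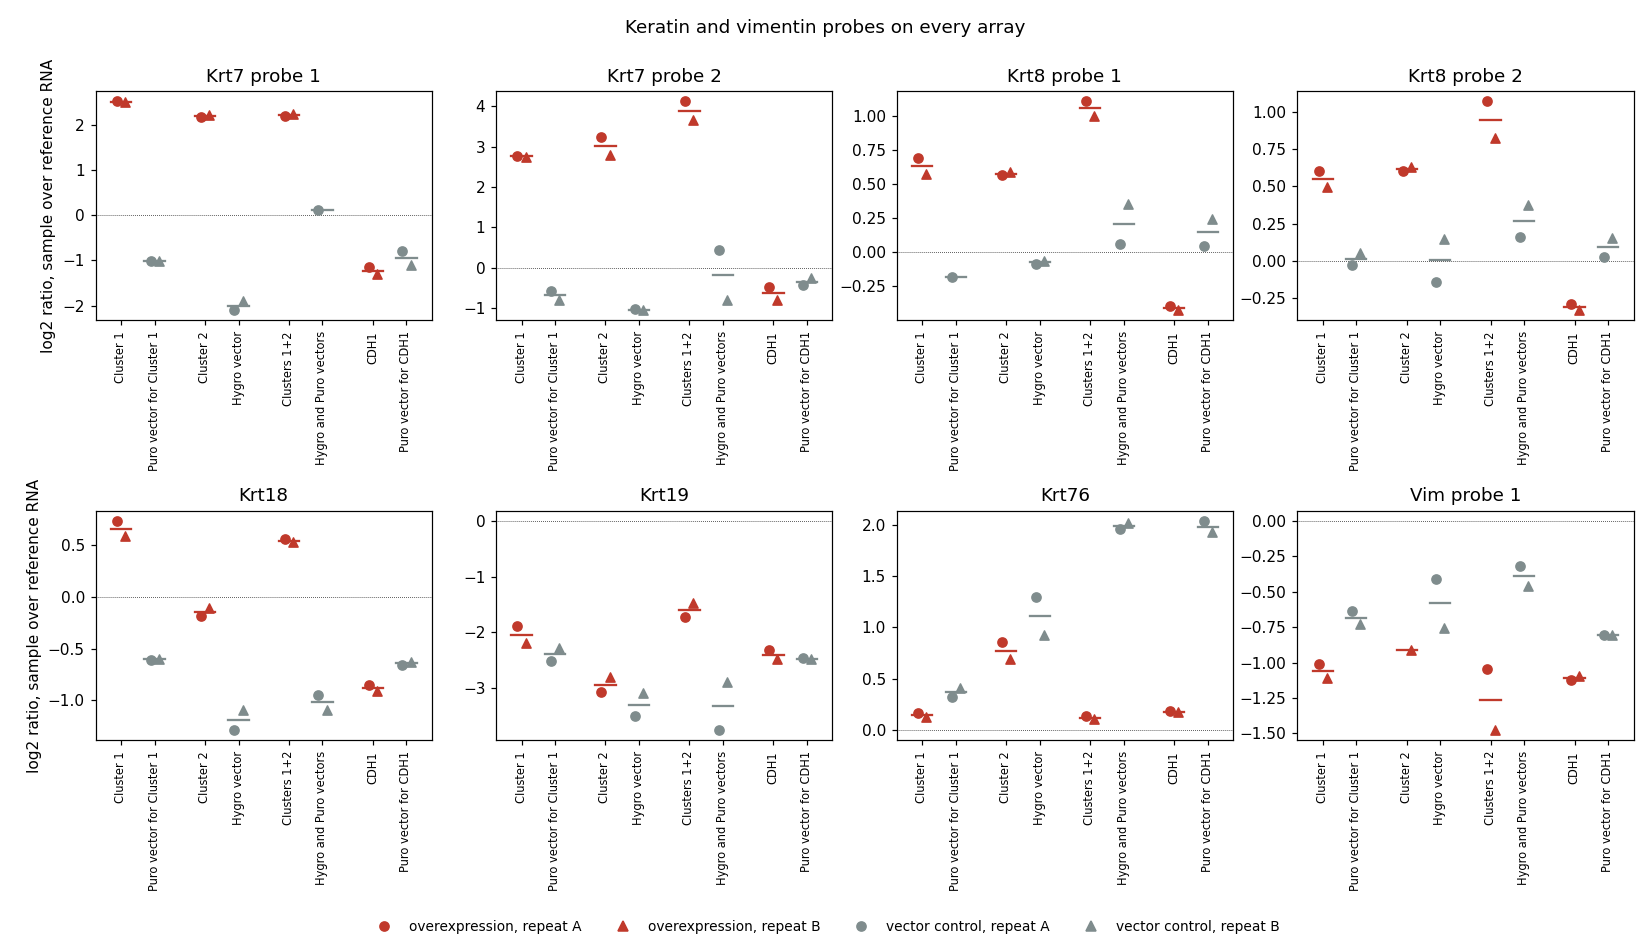
Log2 ratio of cell RNA over reference RNA at the 8 probes that passed the filter, 1 panel per probe; the vertical scale differs between panels. Red marks overexpression and grey the vector control to its right, circles are repeat A, triangles repeat B, and the bar is their mean. Krt7, Krt8 and Krt18 lie above their controls in all 3 miR-200 groups, and Krt76 is near 2.0 in 2 of the 4 vector groups. A missing symbol is a spot marked by the scanner software.

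Krt7, a type II keratin of glandular and ductal epithelia, showed the largest rises of the 6 genes in the 3 miR-200 comparisons. Its probes, on chromosome 15 of build mm7 at 101413898 to 101413957 (probe 1) and 101409444 to 101409503 (probe 2), both on the plus strand, lie 4394 bases apart, so each reads a different stretch of the gene. Probe 2 is shown because it carries the Krt7 result in Clusters 1+2.
Krt7 probe 2: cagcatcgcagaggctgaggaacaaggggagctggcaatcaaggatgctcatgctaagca
In Cluster 1, Krt7 probe 1 was at 2.52 and 2.50, against -1.01 and -1.01 with its Puro vector. Probe 2 was at 2.77 and 2.73 in Cluster 1, against -0.58 and -0.80 in the same controls. Both overexpression arrays stood far above both vector arrays on either probe, with differences of 3.52 (SE 0.10, adjusted p 1.05e-08) and 3.44 (SE 0.29, adjusted p 1.95e-05) in the limma fit. In Cluster 2, probe 1 was at 2.17 and 2.21, against -2.10 and -1.90 with the Hygro vector, a difference of 4.19 (SE 0.10, adjusted p 1.39e-09). Probe 2 was at 3.23 and 2.79 in Cluster 2, against -1.03 and -1.05 with the Hygro vector, and rose by 4.05 (SE 0.29, limma adjusted p 5.92e-06). With the Hygro vector, probe 2 was not well above background on either array, so in the cell channel alone Krt7 was at least 15.7-fold higher in Cluster 2, with mean log2 intensities of 10.25 in Cluster 2 and 6.16 in the control.

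The Clusters 1+2 comparison gave unequal values for the Krt7 probes. Probe 2 was at 4.12 and 3.66 in Clusters 1+2, against 0.43 and -0.80 with the Hygro and Puro vectors, and rose by 4.07 (SE 0.29, limma adjusted p 4.96e-07). The vector arrays were 1.22 apart on this probe, more than in any other group, and it was well above background on repeat A of that control alone. Without repeat A of the control the difference was 4.69, and without repeat B it was 3.46. Probe 1 was at 2.20 and 2.24 in Clusters 1+2, against 0.11 on repeat A of the control; repeat B was a marked spot and has no value. Its difference of 2.11 (limma adjusted p 2.05e-07) therefore rests on 1 control array, the one that was also high on probe 2. With all spots kept, repeat B of the control included, the probe 1 difference was 3.15 (limma adjusted p 0.00433). Against the Hygro vector, with the cell channel of Clusters 1+2 repeat A saturated, probe 1 rose by 4.22 (limma adjusted p 2.55e-10). That comparison was chosen after repeat A of the control was seen. No such value is given for probe 2, which was not well above background with the Hygro vector.

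The reference channel at Krt7 was not constant, although every array carried the same reference RNA. At probe 1 the log2 intensity of the reference, after loess and Aquantile scaling, was 12.87 and 12.80 on the Clusters 1+2 arrays. It was 9.32 on the only control array with a value. It was 11.12 and 11.10 in Cluster 2, against 9.30 and 9.22 with the Hygro vector, and 11.13 and 11.27 in Cluster 1, against 9.60 and 9.58 with its Puro vector. The reference signal was thus higher wherever the cell signal was high, and a ratio to it gives a smaller difference than the cell channel does. In the cell channel alone probe 1 differed by 5.13 in Cluster 1, 6.04 in Cluster 2 and 5.63 in Clusters 1+2. At probe 2 the scaled reference moved by 1.30 in Cluster 1, 0.04 in Cluster 2 and 1.21 in Clusters 1+2. Before correction and scaling, its mean signal moved in another order. It was 87.8 and 94.5 in Cluster 1, against 69.9 and 88.9 with its Puro vector. In Cluster 2 it was 411 and 454, against 243 and 232 with the Hygro vector. In Clusters 1+2 it was 921 and 983, against 285 and 279 with the Hygro and Puro vectors. The probe 1 spot was saturated in the cell channel on repeat A of Clusters 1+2. Why the reference signal moved was not tested.

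**Figure D2:**
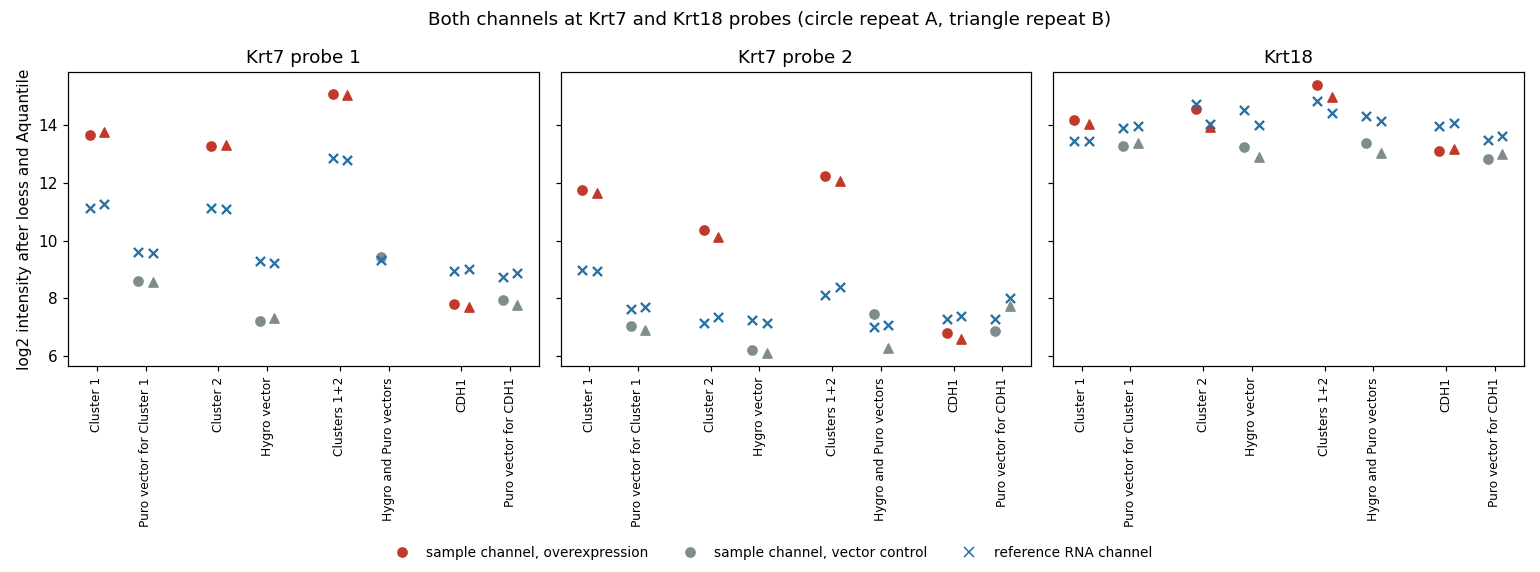
Log2 intensity of both channels after loess and Aquantile scaling at the Krt7 probes and at Krt18, by group. Red and grey symbols are the cell RNA of overexpression and vector arrays (circles repeat A, triangles repeat B), and blue crosses are the reference RNA on the same arrays. The crosses of Krt7 probe 1 run from 8.74 to 12.87, while those of Krt18 run from 13.45 to 14.83.

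In CDH1 cells Krt7 was not called on either probe. Probe 1 was at -1.15 and -1.30 in CDH1, against -0.80 and -1.10 with its Puro vector, a difference of -0.28 (95% interval -0.50 to -0.05, limma adjusted p 0.113). Without repeat B of that Puro vector it was called (-0.42, limma adjusted p 0.0327). Probe 2 differed by -0.29 (95% interval -0.93 to 0.34). The Cluster 1 effect exceeded the CDH1 effect by 3.80 on probe 1 and 3.74 on probe 2 (limma adjusted p 4.78e-08 and 5.95e-05).

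Krt8 and Krt18, the type II and type I partners of simple epithelial filaments, rose together in the 3 miR-200 comparisons. The Krt8 probes lie on the minus strand of chromosome 15 in mm7, at 101983072 to 101983131 (probe 1) and 101982940 to 101982999 (probe 2), and the Krt18 probe on the plus strand of the same chromosome at 102018067 to 102018126. Krt18 was at 0.73 and 0.58 in Cluster 1, against -0.61 and -0.60 with its Puro vector, and rose by 1.26 (SE 0.08, limma adjusted p 2.49e-06). It was at -0.19 and -0.11 in Cluster 2, against -1.28 and -1.09 with the Hygro vector, a rise of 1.04 (SE 0.08, limma adjusted p 1.53e-05). With both clusters it was at 0.56 and 0.53, against -0.95 and -1.09 with the Hygro and Puro vectors, a rise of 1.56 (SE 0.08, limma adjusted p 3.65e-08). The groups did not overlap in any of the 3 comparisons, and Krt18 stood below the reference in every vector group. In fold terms these rises were 2.4, 2.06 and 2.96. At Krt18 the cell channel alone differed by 0.78 in Cluster 1, since the reference was lower by 0.48 on those arrays, and the reference spot was saturated on repeat A of Clusters 1+2 and of its control.

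Krt8 moved by less than Krt18 in each of these comparisons. Probe 1 was at 0.69 and 0.57 in Cluster 1, against -0.18 on the only vector array with a value, the other spot being marked, and rose by 0.81 (SE 0.12, limma adjusted p 0.00235). The lone control array is assumed there to vary like the other groups, so this call has no spread of its own control. Probe 2 was at 0.60 and 0.49 in Cluster 1, against -0.03 and 0.05 with its Puro vector, a rise of 0.54 (SE 0.11, limma adjusted p 0.0116). In Cluster 2, probe 1 was at 0.57 and 0.59 and probe 2 at 0.60 and 0.63, against -0.09 and -0.06 (probe 1) and -0.14 and 0.15 (probe 2) with the Hygro vector. These are rises of 0.65 and 0.62, with all Cluster 2 arrays above all Hygro vector arrays (limma adjusted p 0.00524 and 0.0104). For Clusters 1+2, probe 1 was at 1.11 and 1.00, against 0.06 and 0.36 with the Hygro and Puro vectors, and probe 2 at 1.07 and 0.83, against 0.16 and 0.37. Krt8 rose there by 0.85 and 0.68 (limma adjusted p 7.83e-05 and 0.000588), or 1.8-fold and 1.61-fold. The probes lie 72 bases apart in the same gene and are not separate evidence. In Cluster 1, probe 2 missed with all spots kept (0.48, limma adjusted p 0.127) and in the cell channel alone (0.38, limma adjusted p 0.123). Probe 1 could not be tested in Cluster 1 without Puro vector repeat A, its only control value. Probe 2 was called there without repeat B of Cluster 1, and missed without Cluster 1 repeat A, Puro vector repeat A or Puro vector repeat B (adjusted p 0.117, 0.0935 and 0.0504 in limma, differences 0.49, 0.50 and 0.58). In Cluster 2 it missed without Hygro vector repeat A or Cluster 2 repeat B (adjusted p 0.0509 and 0.0691 in limma, differences 0.47 and 0.60). Both probes missed in Cluster 2 with all spots kept (adjusted p 0.0511 and 0.113), with processed signals (0.0644 and 0.108), with scaling between arrays (0.153 and 0.158), in the cell channel alone (0.124 and 0.0636) and with only the arrays of that comparison (0.0895 and 0.252, all in limma), at differences of 0.49 to 0.66. Krt18 also missed there with only its own arrays (1.04, limma adjusted p 0.0696).

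In CDH1 cells both Krt8 probes fell. Probe 1 was at -0.39 and -0.42 in CDH1, against 0.04 and 0.25 with its Puro vector, and fell by 0.55 (SE 0.10, limma adjusted p 0.00404). Probe 2 was at -0.29 and -0.33 in CDH1, against 0.03 and 0.16, and fell by 0.40 (SE 0.11, limma adjusted p 0.0333). Against the Puro vector for Cluster 1, which lay on another slide, neither fall was called (differences of -0.23 and -0.32, adjusted p 0.507 and 0.216 in limma). In the cell channel alone probe 1 differed by -0.39 and probe 2 by 0.04. Leaving out any 1 of the 4 arrays also ended the call of probe 2 (differences -0.47 to -0.34, adjusted p 0.0611 to 0.2 in limma), and probe 1 was called in all 4 such fits. Krt18 was at -0.85 and -0.91 in CDH1, against -0.65 and -0.63 with its Puro vector, a difference of -0.24 that did not pass (95% interval -0.42 to -0.06, limma adjusted p 0.0876). The Cluster 1 effect exceeded the CDH1 effect by 1.50 at Krt18 and by 1.37 and 0.94 at the Krt8 probes (limma adjusted p 4.46e-06, 0.000152 and 0.00132). In the cell channel alone that difference was 0.56 at Krt18 and 0.34 at Krt8 probe 2, and neither was called (limma adjusted p 0.223 and 0.258).

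The promoters of the 3 keratins that rose together in each miR-200 comparison are shown from RefSeq (GRCm38.p6), 250 bases before to 50 after the gene start, because Zeb and Snail repressors bind E-box letters. Capitals mark CACCTG and CAGGTA, searched on both strands. Krt7 lies at chr15:101412153-101412452 on the plus strand, Krt8 at chr15:102004293-102004592 on the minus strand and Krt18 at chr15:102027966-102028265 on the plus strand.
Krt7: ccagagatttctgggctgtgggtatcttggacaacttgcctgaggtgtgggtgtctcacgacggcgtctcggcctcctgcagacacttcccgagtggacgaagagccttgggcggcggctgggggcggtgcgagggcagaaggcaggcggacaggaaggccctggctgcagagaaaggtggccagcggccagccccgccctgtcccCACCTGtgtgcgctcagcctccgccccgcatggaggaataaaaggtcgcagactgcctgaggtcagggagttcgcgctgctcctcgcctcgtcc
Krt8: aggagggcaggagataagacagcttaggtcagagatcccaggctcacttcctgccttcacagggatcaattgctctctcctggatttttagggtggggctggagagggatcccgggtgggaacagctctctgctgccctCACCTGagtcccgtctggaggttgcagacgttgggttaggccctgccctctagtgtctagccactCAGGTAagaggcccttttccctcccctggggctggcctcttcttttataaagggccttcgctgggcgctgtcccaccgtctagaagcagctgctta
Krt18: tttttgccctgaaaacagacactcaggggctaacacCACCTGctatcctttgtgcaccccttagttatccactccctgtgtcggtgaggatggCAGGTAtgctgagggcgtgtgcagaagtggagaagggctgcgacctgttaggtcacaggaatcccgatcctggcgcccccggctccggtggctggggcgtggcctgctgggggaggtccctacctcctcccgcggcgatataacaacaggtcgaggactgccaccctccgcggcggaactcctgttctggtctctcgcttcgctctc
Each of the 3 windows held CACCTG 1 time, at position -44 in Krt7, -111 in Krt8 and -214 in Krt18 from the gene start. Of all 32851 promoter windows of this length, 20.2% held it on either strand. The letters CAGGTA, in 12% of all windows, stood at -46 in Krt8, -157 in Krt18 and -75 in Krt76. Neither motif matched in the Vim window, and CACCTG did not match in the Krt76 window. The GC box letters GGGCGG, which Sp1 binds, matched 4 times in the Krt7 window and in 35.7% of all windows. A match describes letters and is not a site shown to be bound.

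Krt19, a short type I keratin of ductal and glandular epithelia, was called in Clusters 1+2 alone of the 4 comparisons. Its probe lies on the minus strand of chromosome 11 in mm7 at 100250117 to 100250176 and is shown as the only reading of this gene.
Krt19: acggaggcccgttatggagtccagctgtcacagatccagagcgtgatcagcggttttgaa
Krt19 was at -1.72 and -1.47 in Clusters 1+2, against -3.75 and -2.90 with the Hygro and Puro vectors, and rose by 1.73 (SE 0.23, limma adjusted p 9.9e-05), or 3.32-fold. The signal was low, with a mean log2 cell intensity of 7.32. It was 6.13 and 6.67 on the Hygro and Puro vectors arrays, both scored well above background. The undetected Vim probe 2 was at 6.21 on repeat A there, so the size of this rise rests on control values near the floor. Every one of the 8 groups stood below the reference RNA. In Cluster 1 it was at -1.89 and -2.19, against -2.51 and -2.28 with its Puro vector, a difference of 0.36 (95% interval -0.13 to 0.85, limma adjusted p 0.491). In Cluster 2 it was at -3.08 and -2.80, against -3.51 and -3.09 with the Hygro vector, also a difference of 0.36 (95% interval -0.13 to 0.85, limma adjusted p 0.529). The CDH1 difference was 0.07 (95% interval -0.42 to 0.56). With all marked spots kept, the Clusters 1+2 rise of 1.73 had an adjusted p of 0.201 in limma.

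Krt76 was high in particular vector groups rather than in any overexpression group. It was at 0.13 and 0.11 in Clusters 1+2, against 1.95 and 2.02 with the Hygro and Puro vectors, and fell by 1.87 (SE 0.10, limma adjusted p 5.09e-08). It was at 0.18 and 0.17 in CDH1, against 2.03 and 1.93 with its Puro vector, and fell by 1.80 (SE 0.10, limma adjusted p 4.01e-07). In Cluster 1 it was at 0.16 and 0.13, against 0.32 and 0.41 with the other Puro vector, a difference of -0.22 that did not pass (limma adjusted p 0.3). In Cluster 2 it was at 0.85 and 0.69, against 1.30 and 0.93 with the Hygro vector, a difference of -0.34 (limma adjusted p 0.143) that was called without Hygro vector repeat B (-0.52, adjusted p 0.0217). The vector groups differed among themselves. The Puro vector for Cluster 1 was lower than the Puro vector for CDH1 by 1.61 (SE 0.10, limma adjusted p 1.52e-06). Krt76 was the 1 probe of 8 called between these controls, where 7.67% of all probes were called. The Puro groups lay on slides 4 and 3, so vector line and slide cannot be told apart here. The Hygro and Puro vectors exceeded the Hygro vector by 0.88 (SE 0.10, limma adjusted p 0.00808), a call that was lost without Hygro vector repeat B (0.69, adjusted p 0.06) or without Hygro and Puro vectors repeat B (0.84, adjusted p 0.119). Only 7 probes of all tested (0.0259%) were called between those controls, and 2 of them were Krt76 and Krt7 probe 1. The Krt7 call rests on the single control array described above. With all spots kept Krt7 probe 1 was not called there (0.60, limma adjusted p 0.767). Apart from left-out arrays, the Krt76 call was kept in 6 of 12 alternative settings, at differences of 0.69 to 1.27. Set against the Puro vector for Cluster 1, CDH1 differed by -0.19 at Krt76 (limma adjusted p 0.501), and set against the Hygro vector, Clusters 1+2 differed by -0.99 (limma adjusted p 1.5e-05). With marked spots kept, the CDH1 difference was -0.96 and that between the Puro vectors -0.95, and neither was called (limma adjusted p 0.277 and 0.593), while in the cell channel alone the CDH1 difference was -2.76. The signal was low: its mean log2 cell intensity was 7.53 over the 16 arrays, and it was well above background on 1 of the 2 Clusters 1+2 arrays. Its probe lies on the minus strand of chromosome 15 in mm7 at 101870780 to 101870839.

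**Figure D3:**
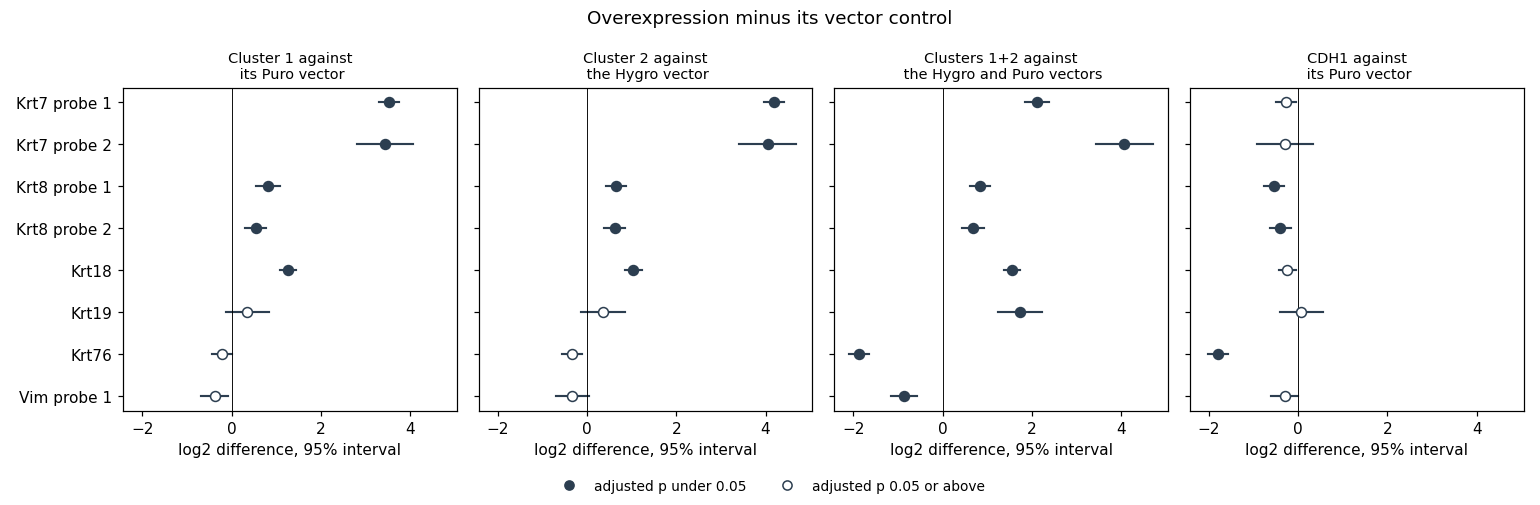
Log2 difference of overexpression minus its own vector control at the 8 tested probes, with 95% intervals from the limma fit; 1 panel per comparison. Filled points had an adjusted p under 0.05 over all probes. The Krt7 points lie above 2 in the 3 miR-200 panels, and the Vim and Krt76 points lie below 0 in all 4, filled for Vim in the Clusters 1+2 panel and for Krt76 in the Clusters 1+2 and CDH1 panels.

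Vim was read by 2 probes on the plus strand of chromosome 2 in mm7, at 13521763 to 13521822 (probe 1) and 13516297 to 13516356 (probe 2), 5406 bases apart. Probe 1 was among the bright spots, with a mean log2 cell intensity of 13.36 and well above background on all 16 arrays. Probe 2 was well above background on 0 of the 16 arrays and gave no test. It is shown because it opens with GTAAGT, in capitals, letters that as background are typical of the start of an intron.
Vim probe 2: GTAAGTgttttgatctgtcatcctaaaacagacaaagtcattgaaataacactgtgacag
On probe 1, Vim was at -1.05 and -1.48 in Clusters 1+2, against -0.32 and -0.46 with the Hygro and Puro vectors, and fell by 0.87 (SE 0.14, limma adjusted p 0.00057), or 1.83-fold. The falls within slides 1 and 2 were 0.73 and 1.01 in size. In Cluster 1 Vim was at -1.01 and -1.11, against -0.64 and -0.73 with its Puro vector, a difference of -0.38 (95% interval -0.68 to -0.08, limma adjusted p 0.152). In Cluster 2 the single usable array was at -0.91, the other spot being marked, against -0.41 and -0.76 with the Hygro vector, a difference of -0.33 (95% interval -0.69 to 0.04, limma adjusted p 0.419). That Cluster 2 array lay on slide 2, and against the Hygro vector array on the same slide its difference was -0.15. In CDH1 Vim was at -1.12 and -1.09, against -0.81 and -0.80 with its Puro vector. The CDH1 difference was -0.30 (95% interval -0.60 to -0.005, limma adjusted p 0.202). The overexpression arrays thus lay below their vector arrays in every comparison, and the difference passed the test in Clusters 1+2. The reference spot of Vim was saturated on 6 of the 16 arrays, all of them on slides 1 and 2, where the ratio has the cell RNA over a capped reference.

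Differences between effects were tested directly. The Clusters 1+2 effect differed from the Cluster 2 effect on 4 of 8 probes, where 5.25% of all probes were called. Krt19 rose by 1.37 more in Clusters 1+2 (SE 0.32, limma adjusted p 0.0251) and Krt18 by 0.52 more (SE 0.12, limma adjusted p 0.021), and Krt76 fell by 1.53 more (SE 0.15, limma adjusted p 6.82e-05). At Krt76 the Hygro and Puro vectors themselves exceeded the Hygro vector by 0.88, a call kept in 6 of 12 alternative settings apart from left-out arrays. Krt7 probe 1 gave a difference of -2.08 with 1 usable control array in Clusters 1+2, and -0.41 in the cell channel alone (limma adjusted p 0.454), whereas probe 2 gave 0.03 (95% interval -0.87 to 0.92). The scaled reference channel of probe 1 moved by 3.52 in Clusters 1+2 and by 1.85 in Cluster 2. At Krt8 the differences were 0.20 and 0.07, with 95% intervals of -0.12 to 0.51 and -0.27 to 0.41. At Vim the difference was -0.54 (95% interval -1.01 to -0.07) and did not pass (limma adjusted p 0.19); with slide as a block it was -0.70 and was called (limma adjusted p 0.00852). Without Cluster 2 repeat A, Clusters 1+2 repeat B or Hygro vector repeat B, the Krt19 difference was not called (adjusted p 0.0636, 0.0907 and 0.0974 in limma). The Krt18 difference was called in 3 of 8 such fits, and missed without either Clusters 1+2 array, Cluster 2 repeat A, Hygro vector repeat B or Hygro and Puro vectors repeat B (0.43 to 0.54, adjusted p 0.0541 to 0.0913 in limma). With all spots kept, 0 of the 8 probes were called for this contrast (limma adjusted p 0.239 at Krt76, 0.0688 at Krt18 and 0.502 at Krt19). Apart from left-out arrays, the Krt18 difference kept its call in 5 of 12 alternative settings and the Krt19 difference in 7 of 12. The Cluster 1 effect differed from the CDH1 effect on 6 of 8 probes (4 of 8 in the cell channel alone), where 14.2% of all probes were called; these were the Krt7, Krt8, Krt18 and Krt76 probes, and Krt76 was higher by 1.58 (SE 0.15) with different Puro controls on the 2 sides. For Vim that difference was -0.08 (95% interval -0.50 to 0.34).

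Within slides, where Cluster 2 and Clusters 1+2 could each be set against their controls on the same glass, the directions held. In Cluster 2, Krt18 differed by 1.10 on slide 1 and 0.98 on slide 2, and Krt7 probe 2 by 4.26 and 3.84. In Clusters 1+2, Krt18 differed by 1.51 and 1.62, Krt19 by 2.04 and 1.43, and Krt76 by -1.82 and -1.91. With slide as a block, 5 of 8 probes were called in Cluster 2 and 8 of 8 in Clusters 1+2, as without it. The same fit called 6 of 8 in Cluster 1, 4 of 8 in CDH1 and 5 of 8 for Clusters 1+2 minus Cluster 2, where Vim was the probe gained (limma adjusted p 0.0163, 0.03 and 0.00852).

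As a description, the genes whose probe followed each member most closely over the arrays, after the mean of each comparison was taken out, are named with their Pearson correlation. All points share arrays and a reference, and 20051 probes were searched. With those means removed, the values hold largely the 4 differences between overexpression and vector. The repeats of a group are not independent points, so correlations near 1 are easily met among so many probes. Cgnl1, which encodes the junction protein paracingulin, followed Krt18 at 0.993 over 16 arrays, and Nadsyn1 (0.991), an enzyme of NAD synthesis, and Paox (0.989), a polyamine oxidase, came next. Krt7 probe 1 was followed over 15 arrays by the tetraspanin gene Tspan1 (0.947), the NOD-like receptor family gene Nlrp10 (0.946) and the Src family kinase gene Lyn (0.942). In Clusters 1+2 that probe gave a difference of 2.11 with 1 usable control array, where probe 2 gave 4.07. These genes therefore match the probe 1 reading, and probe 2 was not used for this search. Krt8 was followed over 15 arrays by Tapbp (0.967), which encodes tapasin of peptide loading, the sphingosine kinase gene Sphk1 (0.964) and the stress-response gene Nupr1 (0.963). Krt19 was followed over 16 arrays by the membrane protease gene St14 (0.971), Jund (0.959) of the AP-1 factors and the serpin gene Serpinb6b (0.956). Krt76 was followed by the cystatin gene Cstb (0.979), the chemokine receptor gene Ackr3 (0.976) and the kinase gene Map4k4 (0.971). Vim was followed over 15 arrays by the sorting nexin gene Snx27 (0.956), the Wnt deacylase gene Notum (0.945) and Lysmd3 (0.943). Among the members themselves, by the same measure, Krt18 ran with Krt7 probe 2 at 0.974 and with Krt8 probe 2 at 0.926, and against Vim at -0.811; Krt19 ran against Vim at -0.896, and Krt76 ran with Vim at 0.819.

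The other keratin genes were read for comparison. Of 40 other keratin genes on the array, 26 had a probe that passed the filter. In Cluster 1 and in CDH1, 0 of 26 were called, beside 6.1% and 11.8% of all probes. In Cluster 2, where 2.22% of all probes were called, 2 of 26 were, both higher: Krt13, of stratified mucosa, by 0.63 (limma adjusted p 0.0064) and Krt80 by 0.55 (limma adjusted p 0.0153). With Clusters 1+2, where 23.6% of all probes were called, 3 of 26 were higher, Krt13 by 1.26, Krt80 by 0.95 and the basal keratin Krt14 by 0.46, and 2 were lower, Krt23 (difference -1.94) and Krt10, a keratin of differentiating epidermis (difference -0.42). Their limma adjusted p were 2.14e-06, 2.35e-05, 0.00513, 5.36e-06 and 0.00267 in that order. The median difference of the 26 was -0.04 in Cluster 1, -0.04 in Cluster 2, 0.03 in Clusters 1+2 and -0.02 in CDH1. Of the basal keratins, Krt5 differed by 0.12 in Clusters 1+2 (limma adjusted p 0.61) and Krt17 by 0.18 (limma adjusted p 0.379). The list of basal and stratified keratins, whose genes are all among the 40, had 2 of 11 higher and 1 lower in Clusters 1+2, 1 higher in Cluster 2 and 0 called in Cluster 1 and CDH1. The list of other simple epithelial keratins (Krt20, Krt23 and Krt80) had 1 of 3 higher and 1 lower in Clusters 1+2, 1 higher in Cluster 2 and 0 called in the other comparisons.

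**Figure D4:**
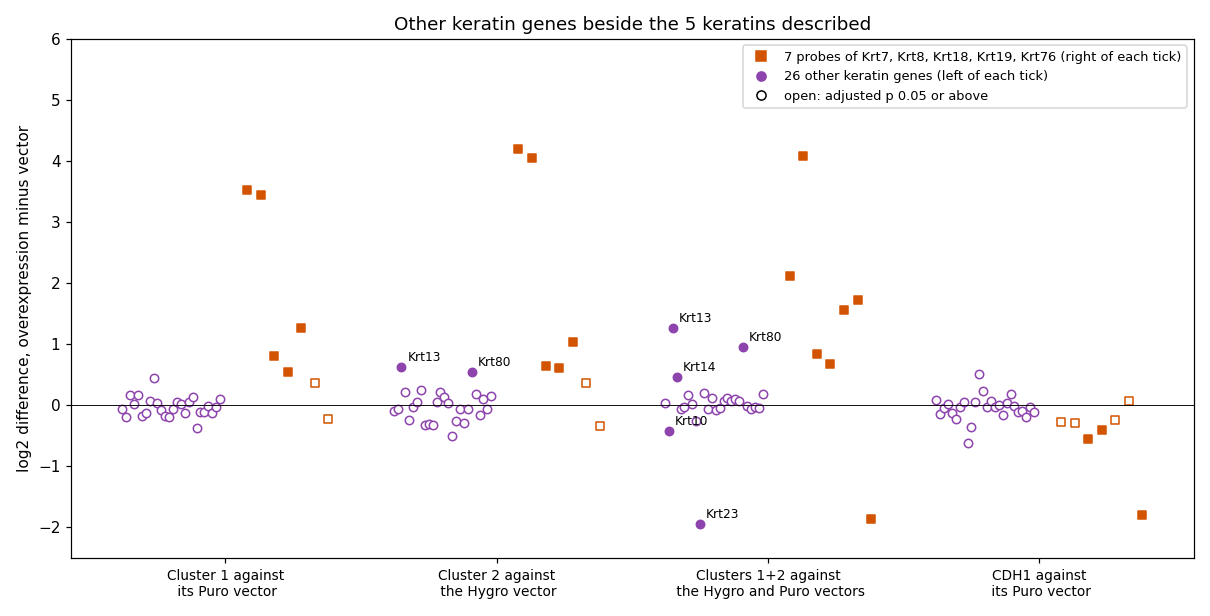
Log2 difference of overexpression minus vector for 26 other keratin genes (circles, left of each tick, in order of gene name) and for the 7 probes of Krt7, Krt8, Krt18, Krt19 and Krt76 (squares, right of each tick). Filled symbols had an adjusted p under 0.05, and called other keratins are named. The called circles are 5 named genes in Clusters 1+2 and 2 in Cluster 2. Some uncalled circles also lie away from 0, such as Krt4 in Cluster 2 (-0.51).

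Of 11 tested genes for other intermediate filament proteins and lamins, 0 were higher in any of the 4 comparisons, and 1 was lower in Cluster 1, 0 in Cluster 2, 3 in Clusters 1+2 and 1 in CDH1, beside 6.1%, 2.22%, 23.6% and 11.8% of all probes called in either direction. These shares are near those of the list in Cluster 1, Clusters 1+2 and CDH1. The 3 lower in Clusters 1+2 were Prph, for peripherin (-0.42), Nes, for nestin (-0.41), and Synm, for synemin (-0.41) (limma adjusted p 0.0175, 0.000345 and 0.0454). Lmna, for lamins A and C, fell by 0.61 in Cluster 1 (limma adjusted p 0.0273) and Nefh, a neurofilament gene, fell by 0.45 in CDH1 (limma adjusted p 0.0238).

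Genes for proteins that anchor or bind keratin filaments were called in each comparison, all 14 of those listed being tested. The share of all probes called was 6.1% in Cluster 1, 2.22% in Cluster 2, 23.6% in Clusters 1+2 and 11.8% in CDH1. In Cluster 1, 4 were higher and 0 lower: the desmosomal plakophilins Pkp2 (0.78) and Pkp3 (0.77), the envoplakin gene Evpl (0.56) and Fam83h (0.38). In Cluster 2, 5 were higher and 0 lower, led by the desmoplakin gene Dsp (1.37) and Pkp1 (1.13). In Clusters 1+2, 6 were higher and 1 lower. There Dsp rose by 3.18, Pkp2 by 1.98, Pkp1 by 1.29 and Pkp3 by 0.90 (limma adjusted p 5.34e-10, 3.19e-09, 2.24e-06 and 4.17e-05). In CDH1, 4 were higher and 2 lower, among them Pkp3 (0.81), Ppl for periplakin (-0.62), Plec for plectin (-0.54) and Pkp2 (0.48). The median difference of the 14 was 0.11 in Cluster 1, 0.20 in Cluster 2, 0.23 in Clusters 1+2 and 0.05 in CDH1.

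Transcription regulators known to act on keratin or vimentin genes were read through 15 tested genes of 17 listed. Zeb2, an E-box repressor, differed by -0.39 in Cluster 1, -0.77 in Cluster 2 and -2.10 in Clusters 1+2 (limma adjusted p 0.0081, 9.04e-05 and 1.83e-09), and its CDH1 difference of -0.21 did not pass (limma adjusted p 0.0999). Ets2, an ETS activator, rose by 0.61, 0.76 and 1.51 in the same 3 comparisons and fell by 0.32 in CDH1 (limma adjusted p 0.00141, 0.000443, 1.01e-07 and 0.0347). Grhl2, a grainyhead activator of epithelial genes, rose by 1.23 in Clusters 1+2 (limma adjusted p 4.81e-07), and Jun fell by 0.81 there (limma adjusted p 1.77e-06). Zeb1, a relative of Zeb2, was not called in any of the 4 comparisons (differences 0.26, -0.32, 0.003 and -0.41). In all, 1 was higher and 2 lower in Cluster 1, 1 and 2 in Cluster 2, 3 and 6 in Clusters 1+2, and 1 and 3 in CDH1, beside 6.1%, 2.22%, 23.6% and 11.8% of all probes called in either direction. In CDH1, Klf4 fell by 0.75 (limma adjusted p 3.37e-05). The median difference of the 15 was near 0 in Cluster 1, -0.07 in Cluster 2, -0.19 in Clusters 1+2 and -0.21 in CDH1.

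Markers of the cell types such cultures could hold were read beside these results. The 9 luminal mammary markers, none of them a keratin, were Cdh1, Epcam, Cldn3, Cldn4, Cldn7, Esr1, Elf5, Gata3 and Prlr. The set thus includes Cdh1, the gene for E-cadherin. The mean log2 ratio over these markers was 0.15 and 0.25 in Cluster 1, against -0.23 and -0.22 with its Puro vector. It ran from 0.13 to 0.35 in Cluster 2, against -0.24 with the Hygro vector, and 0.94 to 0.97 in Clusters 1+2, against -0.27 with its control vectors. In CDH1 it was -0.27 to -0.20, against -0.30 to -0.24 with its Puro vector. Of the 9, 7 were detected in Clusters 1+2 and in its control, and 1 in the Puro vector for CDH1. In every other group, overexpression or vector, 6 were detected. Esr1 and Elf5 were detected in none of the 8 groups. Detected means well above background on both arrays of a group. Repeat B of the Puro vector for CDH1 had 12560 probes well above background, against 23209 and 26307 on the CDH1 arrays. This dim array bears on every detection count of that vector group. Basal markers were at -0.74 to -0.68 in Clusters 1+2, against -0.84 to -0.72 in its control, with Krt14 detected in all 8 groups. Fibroblast markers were at -4.61 to -4.17 in Clusters 1+2, against -4.23 to -3.85, with 7 and 6 of 8 detected. In CDH1, where Krt8 and Krt76 fell, fibroblast markers were at -3.09 to -3, against -2.58 to -2.52 with its Puro vector (8 of 8 detected in both). Leukocyte markers were at -0.72 to -0.62 in CDH1, against -0.53 to -0.49, with 6 and 2 of 6 detected. Of 4 endothelial and 2 adipocyte markers, 0 were detected in the 4 Cy3 groups, where 3 to 4 of 6 leukocyte markers were. On slide 4, Cluster 1 and its Puro vector each had 3 of 4 endothelial, 1 of 2 adipocyte and 6 of 6 leukocyte markers detected. The part of such markers in the keratin and vimentin results was not tested.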

How the data were processed

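Per the file headers, each scanner file came from Agilent Feature Extraction 9.5.3.1 (design 014868, positions on build mm7). The deposited intensity columns used were the mean signal and median local background of both dyes. The authors' files also give processed signals and a log10 ratio, red over green. The deposited series matrix gives a linear ratio, which equalled processed cell over reference signal within 8.06e-08 on the log10 scale (column medians 0.903 to 1.18). Here, marked spots (264 to 1493 an array) were set missing, background was corrected by normexp (offset 50), and loess was run with controls at weight 0 (limma 3.58.1, R 4.3.3). A probe was tested if both arrays of some group were well above background in the cell channel. The fit used lmFit and eBayes on 8 group means, two-sided, and was tested on simulated data. Probe names came from the accession (22951 probes), current symbol (6659), synonym (3109) or the file (8455). Named were all member probes, the 3 genes closest to each member's brightest probe, and at most 4 called genes per list and comparison with the largest difference; Krt5, Krt17, Zeb1 and Zeb2 in CDH1 were added after their values were seen. Members, lists and tests were chosen with earlier results of these data known. Alternatives covered background, scaling, filter, channel, control, blocks and left-out arrays. The number of arrays limits precision. Figures used matplotlib 3.10.9.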

Additional observations from a re-analysis of the deposited data

Results flagged for a closer look

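The effects that differed between comparisons by a test of the difference itself are given here as values, with 2 arrays in each group or fewer where a spot was marked. The Cluster 1 effect minus the CDH1 effect was 3.80 at Krt7 probe 1, 3.74 at Krt7 probe 2, 1.37 at Krt8 probe 1, 0.94 at Krt8 probe 2, 1.50 at Krt18 and 1.58 at Krt76. In the cell channel alone Krt18 was 0.56 and Krt8 probe 2 was 0.34, and with all spots kept Krt76 was 0.86, none of them called (limma adjusted p 0.223, 0.258 and 0.615). The Krt76 value rests on Puro controls that themselves differed by -1.61 and lay on different slides. The Clusters 1+2 effect minus the Cluster 2 effect was 0.52 at Krt18, 1.37 at Krt19 and -1.53 at Krt76. At Krt7 probe 1 it was -2.08, with 1 usable control array, and -0.41 in the cell channel alone, where it was not called (limma adjusted p 0.454). The controls behind this Krt76 value differed too, the Hygro and Puro vectors exceeding the Hygro vector by 0.88. That call was kept in 6 of 12 alternative settings apart from left-out arrays. Krt18 was not called in the cell channel alone (0.79, limma adjusted p 0.367) or with median centring (0.21, limma adjusted p 0.523). With scaling between arrays neither Krt18 (0.40) nor Krt19 (1.10) was called (limma adjusted p 0.637 and 0.678).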

How the results depend on the processing

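Of 1088 probe differences recomputed under alternatives, 39 changed sign, and 2 of those were called. The counts of member probes called (8 tested) were 5 in Cluster 1, 5 in Cluster 2, 8 in Clusters 1+2, 3 in CDH1, 4 for Clusters 1+2 minus Cluster 2, 6 for Cluster 1 minus CDH1, 1 between Puro vectors and 2 between the Hygro and Puro and the Hygro vectors. Leaving out 1 array gave 3 to 5, 4 to 6, 7 to 8, 2 to 3, 2 to 4, 5 to 6, 1 to 1 and 1 to 2 in that order. With all spots kept, counts were 3 in Cluster 2, 1 in CDH1 and 0 for Clusters 1+2 minus Cluster 2, between Puro vectors and between the Hygro vectors, and Krt19 was -0.33 in Cluster 2, -0.90 in CDH1 and -0.29 between Puro vectors, where Krt18 was -0.058. Offset 10 gave 2 for Clusters 1+2 minus Cluster 2 and 1 between the Hygro vectors; signs turned at Krt7 probe 2 for Clusters 1+2 minus Cluster 2 (-0.57), Krt19 for Cluster 1 minus CDH1 (-0.025), Krt7 probe 1 between Puro vectors (0.099) and Krt19 between the Hygro vectors (0.094). Processed signals gave 3 in Cluster 2, 1 for Clusters 1+2 minus Cluster 2 and 1 between the Hygro vectors, with the same 4 differences at -1.51, -0.61, 0.36 and 0.15. Median centring gave 1 in CDH1; Krt18 there was 0.042, Krt8 probes 1 and 2 were -0.11 and -0.24 for Clusters 1+2 minus Cluster 2, Krt8 probe 2 and Krt7 probe 1 were 0.069 and 0.14 between Puro vectors, and Krt19 was 0.13 between the Hygro vectors. Scaling between arrays gave 3 in Cluster 2, 2 for Clusters 1+2 minus Cluster 2 and 0 between the Hygro vectors, with Krt7 probe 2 at -0.041 for Clusters 1+2 minus Cluster 2 and Krt19 at -0.14 for Cluster 1 minus CDH1. The cell channel alone gave 3 in Cluster 2, 1 in CDH1, 2 for Clusters 1+2 minus Cluster 2, 3 between Puro vectors and 1 between the Hygro vectors; Krt8 probe 2 was 0.040 and Krt18 0.22 in CDH1, and between Puro vectors Krt8 probes 1 and 2 were 0.0085 and 0.53, Krt7 probe 1 was 0.73 and Vim was -0.25. It also gave 4 for Cluster 1 minus CDH1. The brightest probe per gene, 6 in all, gave 3 in Cluster 1 and 3 in Cluster 2. Fitting only the arrays compared gave 2 in Cluster 2, 2 for Clusters 1+2 minus Cluster 2 and 0 between the Hygro vectors. With the Puro vector for Cluster 1 as control, CDH1 had 0 called, Krt19 at -0.0018 and Krt7 probe 2 at 0.051. Left-out arrays turned the sign of Krt19 in CDH1 (-0.0094 to 0.15), of Krt8 probe 2 (-0.077 to 0.21) and Krt7 probe 2 (-0.58 to 0.64) for Clusters 1+2 minus Cluster 2, of Krt7 probe 1 (-0.21 to 0.088) and Krt19 (-0.040 to 0.19) between Puro vectors, and of Krt19 between the Hygro vectors (-0.45 to 0.40). The cause of these changes was not tested, apart from the fewer probes or arrays that some settings hold. Counts over all probes, and so the shares called, moved too: Cluster 1 had 1652, against 183 with all spots kept; Cluster 2 had 600, against 41 (its own arrays) to 2595 (median centring); Clusters 1+2 had 6371, against 2370 (scaling) at the lowest; CDH1 had 3183, against 460 (the other Puro vector) and 1297 (all spots kept); Clusters 1+2 minus Cluster 2 had 1418, against 158 (scaling) to 2991 (median centring); Cluster 1 minus CDH1 had 3852, against 1174, and the Puro vectors 2078, against 500 (all spots kept).

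The repeat letter as a block gave 6, 5, 8, 4, 5, 6, 1 and 2 called, in the order above; Vim was then called in Cluster 1 (adjusted p 0.0311), CDH1 (0.0453) and Clusters 1+2 minus Cluster 2 (-0.70, 0.0192), Krt7 probe 1 was called in CDH1 (0.0478), and Krt8 probe 2 in CDH1 was not (0.0545, limma). Repeat differences correlated at 0.222 to 0.408 between groups sharing slides 1 and 2, where the letter is the slide. They correlated at -0.166 to 0.078 between the other 22 pairs of groups. The main tests leave this pairing out in every group, and the fit with slide as a block for slides 1 and 2 is given beside them.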
